A study of Rattus norvegicus with 4 samples.

Results

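The enteric nervous system was examined through 8 genes, of which 6 mark neurons (Vip, Tac1, Nos1, Uchl1, Elavl4 and Ret) and 2 mark glia (Gfap and S100b). Members were all gene probes whose name on the array equals one of these symbols, which gave 11 of the 40981 probes used and 8 of 35638 distinct gene names. Total RNA of the small intestine was measured with 1 one-colour Agilent array for each rat, after Peyer's patches, the lymphoid follicles of the gut wall, had been cut away. The compost group was 2 male Wistar rats, an outbred stock, that drank tap water holding 1% (v/v) compost extract, a heated watery dilution of fermented compost, for 12 weeks from 3 weeks of age. The control group was 2 male Wistar rats of the same age on tap water alone. The labels do not say which stretch of the small intestine was taken or how much of the muscle wall it held.

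Enteric neurons lie in 2 layers of the gut wall, the myenteric plexus between the muscle sheets and the submucosal plexus below the mucosa, and enteric glia surround them. Excitatory motor neurons release acetylcholine and tachykinins and contract the muscle, while inhibitory motor neurons release nitric oxide and vasoactive intestinal peptide and relax it. Submucosal neurons with vasoactive intestinal peptide drive secretion. The receptor tyrosine kinase Ret guides the neural crest cells that form these plexuses.

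Vip and Tac1 encode the precursors of these neuropeptides, and their promoters are shown because both genes were bright and ordered the rats of each group alike. In both, the core letters of the cAMP response element lie upstream of the gene start. The sequences are the 250 bases before the gene start, from RefSeq on the GRCr8 build, plus strand, 5′ to 3′, at chr1:44470230-44470479 for Vip and chr4:36645333-36645582 for Tac1. Capitals mark TGACG or its reverse complement CGTCA.
Vip promoter: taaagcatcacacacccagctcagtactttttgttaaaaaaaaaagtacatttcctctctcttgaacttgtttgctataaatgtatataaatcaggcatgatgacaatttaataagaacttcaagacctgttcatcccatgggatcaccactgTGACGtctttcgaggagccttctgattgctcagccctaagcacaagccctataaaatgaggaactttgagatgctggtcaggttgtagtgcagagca
Tac1 promoter: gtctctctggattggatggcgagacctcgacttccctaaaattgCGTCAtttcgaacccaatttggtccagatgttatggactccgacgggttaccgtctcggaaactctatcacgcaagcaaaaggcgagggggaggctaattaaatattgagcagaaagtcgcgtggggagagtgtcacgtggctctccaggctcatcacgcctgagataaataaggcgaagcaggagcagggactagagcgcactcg

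The match began at base 154 of the Vip window, with 92 bases between its end and the gene start, and at base 45 of the Tac1 window, with 201 bases between. All 8 members had a promoter in the RefSeq table. Over both strands of the same windows, TGACG was found in 3 of the 8 members, Vip, Tac1 and Nos1, and in 18.2% of all 33469 promoters. The full element TGACGTCA, which contains TGACG, was found in Nos1 alone among the members and in 1.59% of all promoters. The TATA box letters TATAAA were found in Vip and Uchl1 and in 12.9% of all promoters. Base composition differed widely between members. The Vip window had 40.0% G and C with 2 CG dinucleotides and the Ret window 72.8% with 25, against a median of 51.2% G and C over all promoters. These matches describe letters and not sites in use. Uchl1 and Elavl4 ordered the rats of each group as Vip and Tac1 did and had 0 TGACG matches. A link between these letters and the order of the rats was not tested.

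Levels are scaled log2 intensities: the log2 of the processed intensity minus the 75th percentile of the array, so that 0 is that percentile. A spot counted as well above background by the scanner software's flag. The lowest gene spot so flagged had a processed intensity of 16.6 and 18.3 on the compost arrays and 17.6 and 14.2 on the control arrays. The share of spots for genes that passed this flag lay between 66.5% and 71.0%, and the median intensity was 113 and 80.8 on the compost arrays and 88.4 and 87.2 on the control arrays. All 4 arrays lay on 1 slide with 1 scan time, and the groups took separate positions on it, so position and group cannot be told apart. Epithelial markers were measured for 13 of 13 genes, among them the actin bundler Vil1 and the fatty acid binding protein Fabp2, which mark the labelled tissue.

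Of the 11 member probes, 6 passed the filter on dim probes, which asked for a signal well above background on at least 2 of 4 arrays. They stood for Vip, Tac1, Uchl1, Elavl4 and Ret, so 5 of the 6 neuron genes and 0 of the 2 glia genes were measured. Vip, Tac1, Uchl1 and the brighter probes of Elavl4 and Ret were well above background on all 4 arrays. Neuron transcripts were thus measured, while Gfap and S100b, the defining glia markers among the members, were not well above background in either group.

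No measured member passed the test between compost and control rats. Of the 6 probes, none passed limma's test over all 28415 probes kept (0 of 6, adjusted p = 1.0 for each), where the share called over all probes was 0%. At an unadjusted p under 0.05, 0 of 6 member probes were counted, against 3.21% of all probes. Log2 differences between compost and control lay between -0.48 and 0.50, with 2 higher, 4 lower and a median of -0.10. Over all kept probes 13122 were higher and 15293 lower, with a median of -0.02. The groups were apart in 1 of the 6 member probes, against 27.9% of all probes. Compost was the lower group there, as in 15.5% of all probes, and compost was wholly above control in 0 of 6, against 12.4%. An exact permutation test of 2 against 2 could not go below p = 0.333. In bulk tissue, fewer cells of a type and less RNA per cell cannot be told apart.

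Tac1, which encodes substance P and neurokinin A of excitatory motor neurons, was measured by 1 probe, A_43_P15247, printed at 10 spots on each array. Its scaled log2 intensity was 2.62 and 1.84 in the compost rats, against 1.39 and 2.07 in the control rats. The groups overlapped: compost replicate 1 was highest, control replicate 1 lowest, and control replicate 2 lay above compost replicate 2. The log2 difference was 0.50 ± 0.38 (SE, n = 2 each), or 1.41-fold, with a 95% interval from 0.707-fold to 2.83-fold and adjusted p = 1.0 by limma. The spots of an array differed far less than the arrays of a group did. With 1 array for each rat, differences between rats and between arrays cannot be told apart. Median intensities of the 10 spots were 6070 and 2610 on the compost arrays and 2050 and 3210 on the control arrays, and the SD between spots of an array was 0.04 and 0.06 on the compost arrays and 0.09 and 0.05 on the control arrays, on the log2 scale. Between the rats of a group the Tac1 gap was 0.78 in compost and 0.67 in control.

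**Figure D1:**
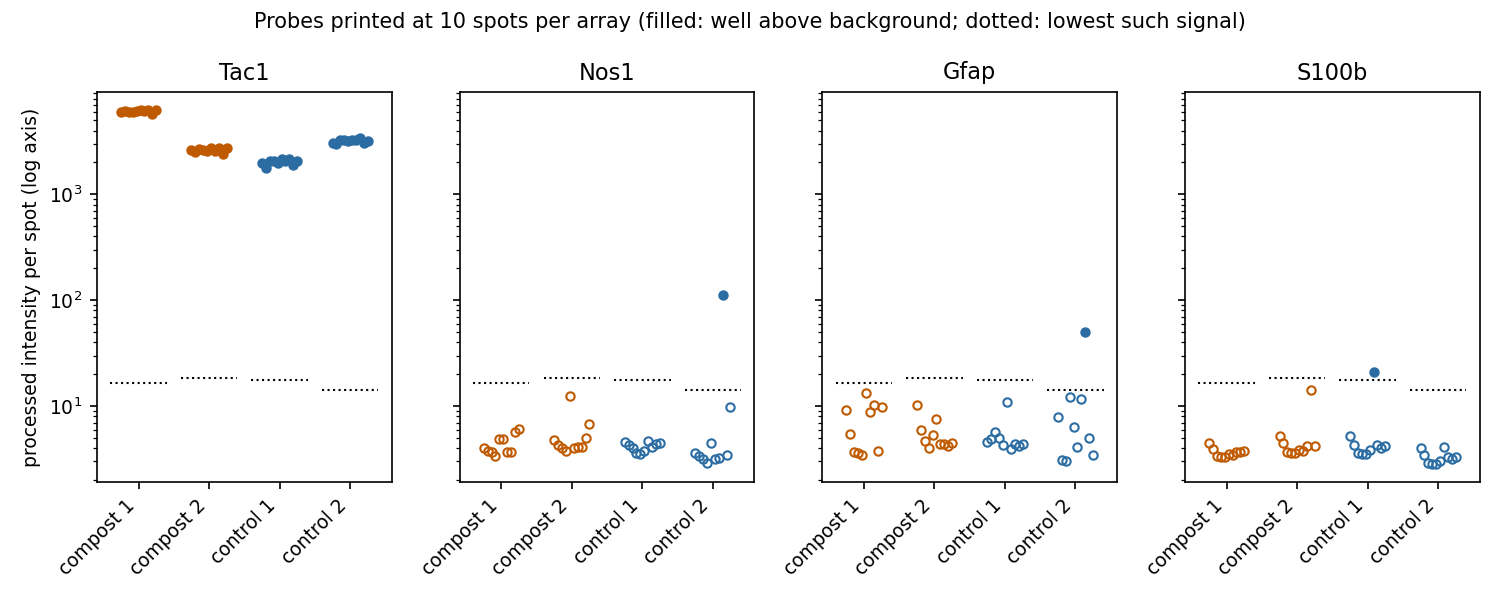
Processed intensity of each of the 10 spots of the Tac1, Nos1, Gfap and S100b probes on each array, on a log axis, with compost arrays on the left. Filled points were well above background, open points were not, and dotted lines give the lowest gene spot well above background on that array. The Tac1 spots of an array sit close together and apart from those of the other arrays, while single filled points stand out for Nos1, Gfap and S100b.

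Vip, which encodes vasoactive intestinal peptide of inhibitory motor and secretomotor neurons, was measured by probe A_42_P719221. Its scaled log2 intensity was 2.0 and 1.36 in the compost rats, against 1.78 and 2.39 in the control rats. The groups overlapped, with control replicate 2 highest and compost replicate 2 lowest. The log2 difference of -0.40 ± 0.34 (SE, n = 2 each) corresponded to 0.756-fold, with a 95% interval from 0.41-fold to 1.39-fold and adjusted p = 1.0 by limma. The 2 neuropeptide genes thus had differences of opposite sign, neither of which passed. Without 1 rat the difference ranged from 0.11 to 0.89 for Tac1 and from -0.72 to -0.08 for Vip.

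Uchl1, the neuronal ubiquitin hydrolase also known as PGP9.5, had scaled log2 intensities of -0.62 and -1.28 in the compost rats, against -1.32 and -0.65 in the control rats. The values of the groups nearly coincided: each group held 1 rat at the upper and 1 at the lower level. The log2 difference was 0.03 ± 0.35 (SE, n = 2 each), with a 95% interval from 0.539-fold to 1.94-fold. It turned to -0.30 when compost replicate 1 was left out, and likewise to -0.30 when control replicate 1 was.

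Elavl4, an RNA-binding protein of neurons also known as HuD, was measured by 2 probes. The brighter, A_42_P792864, lay at -1.16 and -2.11 in the compost rats, against -1.79 and -1.24 in the control rats, on the scaled log2 scale. Compost replicate 2 was lowest and compost replicate 1 highest, so the control rats lay within the compost range. The log2 difference was -0.12 ± 0.40 (SE, n = 2 each; 95% interval from 0.445-fold to 1.90-fold), and it turned to 0.35 when compost replicate 2 was left out and to 0.16 when control replicate 2 was. The second probe, A_44_P116489, was not well above background on any array, with intensities of 12.8 and 3.90 on the compost arrays and 4.07 and 8.77 on the control arrays. It was not tested, and the 2 probes disagreed on whether the gene was measurable.

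Ret, the receptor for the glial cell line-derived neurotrophic factor family, was measured by 3 probes of unequal brightness. The brightest, A_44_P308662, lay at -1.65 and -2.31 in the compost rats, against -1.86 and -1.94 in the control rats. The control rats lay close together, between the 2 compost rats. The log2 difference was -0.08 ± 0.28 (SE, n = 2 each; 95% interval from 0.567-fold to 1.57-fold), and it turned to 0.25 without compost replicate 2.

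The second Ret probe, A_44_P153972, lay at -5.38 and -5.90 in the compost rats, against -5.04 and -5.29 in the control rats. It was the member probe whose groups did not overlap, with both compost rats lower. Compost replicate 2 was not well above background, and the intensities were 23.7 and 12.2 on the compost arrays and 23.5 and 19.5 on the control arrays, close to the lowest signals well above background. The log2 difference was -0.48 ± 0.25 (SE, n = 2 each; 95% interval from 0.451-fold to 1.14-fold; adjusted p = 1.0 by limma). With normexp background correction, which treats low signals differently, it was -0.17. It ranged from -0.74 to -0.22 when 1 rat was left out. The lowest value, without compost replicate 1, had an unadjusted p of 0.0347 and an adjusted p of 0.818 by limma, and the highest was that without compost replicate 2. The third probe, A_44_P480153, was not well above background on any array, so the separation at the second probe was not shared by the brightest one and could not be checked at the third.

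**Figure D2:**
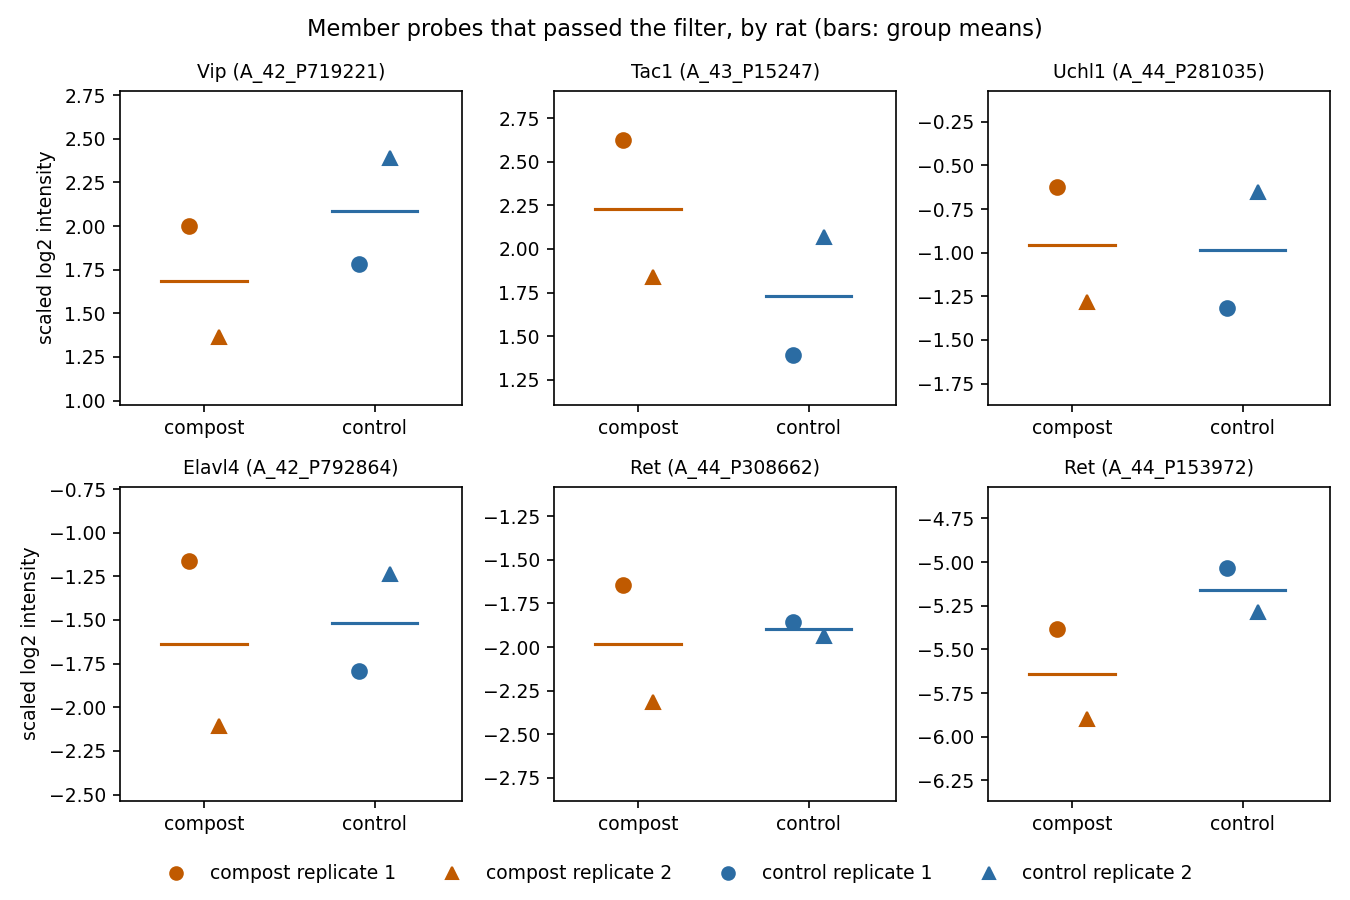
Scaled log2 intensity of the 6 member probes that passed the filter, with compost rats on the left and control rats on the right of each panel. Circles are replicate 1, triangles replicate 2, bars group means, and every panel spans the same 1.8 log2 units. The groups overlap in all panels but that of the dim Ret probe, where compost replicate 2 was not well above background.

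**Figure D3:**
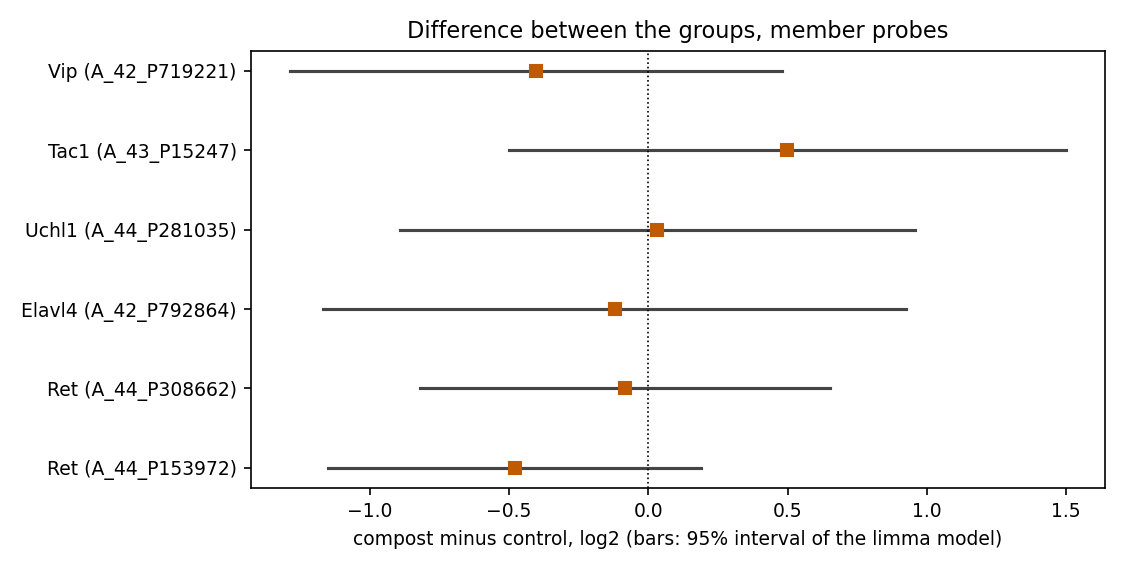
Log2 difference between compost and control (squares) with the 95% interval of the limma model (lines) for the same 6 probes, n = 2 rats in each group. Squares lie between -0.48 and 0.50, and each interval includes 0.

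Nos1, the neuronal nitric oxide synthase of inhibitory motor neurons, and the glia genes Gfap, an intermediate filament, and S100b, a calcium-binding protein, each had 1 probe at 10 spots per array. None of the 3 was well above background on any array by the majority of its spots, so no fold or test is given. Median intensities of the 10 spots were 3.92 and 4.19 for Nos1 on the compost arrays and 4.20 and 3.40 on the control arrays. Those of Gfap were 7.13 and 4.59 on the compost arrays and 4.51 and 5.69 on the control arrays, and those of S100b were 3.60 and 4.05 on the compost arrays and 4.10 and 3.24 on the control arrays. Part of these spots hold a substitute value that the software sets where a signal is not above background: 6 and 6 of 10 Nos1 spots on the compost arrays and 9 and 6 on the control arrays, 3 and 4 of 10 Gfap spots on the compost arrays and 5 and 2 on the control arrays, and 10 and 9 of 10 S100b spots on the compost arrays and 9 and 9 on the control arrays.

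Single spots went against the rest of their probe. On control replicate 2, 1 of 10 Nos1 spots was well above background at an intensity of 111, and 1 of 10 Gfap spots at 49.7. On control replicate 1, 1 of 10 S100b spots was well above background at 21.1. On the compost arrays 0 of 10 spots were well above background for each of the 3 probes. The other 9 spots of each probe on the same array did not follow the bright one.

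The spread between rats of one group was wide for the neuron genes. Averaged over both groups, the log2 gap between the 2 rats was 0.75 for Elavl4, 0.73 for Tac1, 0.66 for Uchl1 and 0.62 for Vip, while it was 0.37 and 0.38 for the Ret probes. Over the 6 probes the median gap was 0.64, against 0.27 over all 28415 probes kept. A larger gap was found in 9.24% of all probes for Elavl4, 9.92% for Tac1, 12.5% for Uchl1 and 14.1% for Vip, and in 34.6% and 33.3% for the brighter and the dimmer Ret probe. In 5 of the 6 member probes this gap exceeded the size of the difference between compost and control, against 72.1% of all probes. The 4 wide genes therefore varied by 1.47-fold to 1.92-fold between the arrays of rats given the same water.

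**Figure D4:**
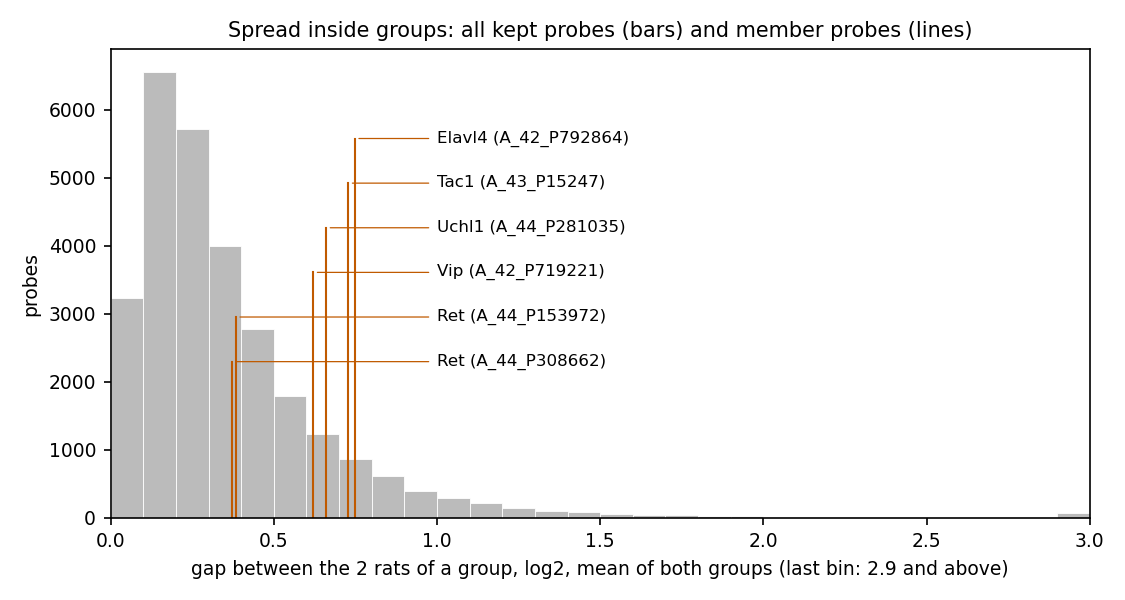
Number of kept probes (bars) by the log2 gap between the 2 rats of a group, averaged over compost and control, with the 6 member probes as lines. Elavl4, Tac1, Uchl1 and Vip lie between 0.62 and 0.75, beyond most probes, and both Ret probes lie near 0.4.

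The same rats were high for these 4 genes. In Vip, Tac1, Uchl1 and Elavl4, compost replicate 1 lay above compost replicate 2 and control replicate 2 above control replicate 1, an order seen in 26.7% of all probes and noted after the values were seen. Ret shared the order in compost and not in control. Centred on each gene's own mean, the 5 measured genes averaged 0.36 and -0.38 in the compost rats, against -0.23 and 0.25 in the control rats. Among genes outside the members, those nearest to this profile by root-mean-square difference over the 4 arrays were Plekhg2 (0.02), Fkbp1b (0.03), Man2a1 (0.03), Lhfpl1 (0.04) and Spock2 (0.04), given as a description of 4 arrays.

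Most genes of the pan-neuronal list had the same order. That list had 18 measured genes, among them genes of axons, vesicles and the cytoskeleton. Of these 18, 0 passed, 7 were higher and 11 lower in compost, with a median difference of -0.06. In 15 of the 18, or 83.3%, compost replicate 1 lay above compost replicate 2 and control replicate 2 above control replicate 1. The median log2 gap in that direction was 0.71 between the compost rats and 0.54 between the control rats. Snap25, a vesicle fusion protein named after its values were seen, lay at -2.71 and -4.06 in the compost rats, against -3.80 and -2.86 in the control rats. The growth cone protein Gap43, also named after its values were seen, lay at -0.38 and -1.21 in the compost rats, against -1.20 and -0.50 in the control rats. Both therefore split each group as Uchl1 did.

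By smallest unadjusted p, the pan-neuronal list was led by the neuronal tubulin Tubb3, at -1.95 and -2.33 in the compost rats, against -1.56 and -1.55 in the control rats. Its log2 difference of -0.58 ± 0.21 (SE, n = 2 each) had adjusted p = 1.0 by limma. Differences of the synaptic vesicle protein Syp (0.31 ± 0.21), the migration protein Dcx (-0.38 ± 0.30) and the ELAV family member Elavl3 (0.77 ± 0.83) also did not pass. Nrcam, a neuronal adhesion molecule (0.86 ± 0.43), and the neurofilament Nefl (-0.73 ± 0.55) were each well above background on 3 of 4 arrays.

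Of 19 measured genes of other transmitters and neuropeptides, 0 passed, 6 were higher and 13 lower in compost, with a median of -0.06. The order of the rats held in 11 of the 19, or 57.9%. Calca and Calcb, which encode calcitonin gene-related peptides of sensory and intrinsic neurons, had log2 differences of -0.50 ± 0.35 and -0.54 ± 0.34 (SE, n = 2 each), and the peptide gene Grp -0.56 ± 0.48. Nmu, which encodes neuromedin U, had the smallest p of the list, at -0.83 and -0.76 in the compost rats, against 0.15 and -0.34 in the control rats (-0.70 ± 0.24, adjusted p = 1.0 by limma). Npy, a neuropeptide also made by sympathetic fibres, was chosen after its values were seen, and it ran the other way. It lay at -0.46 and 1.23 in the compost rats, against 0.84 and 0.05 in the control rats. Th, the first enzyme of catecholamine synthesis, and the GABA synthesis genes Gad1 and Gad2 were not well above background on any array.

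The Ret pathway was measured for 22 genes of ligands, co-receptors and neural crest factors, and 0 passed, with 7 higher and 15 lower in compost and a median of -0.21. Compost was wholly below control in 6 of these genes and wholly above it in 1, against 15.5% and 12.4% of all probes. Edn3, the endothelin that keeps crest cells migrating, had a log2 difference of -1.16 ± 0.18 (SE, n = 2 each; adjusted p = 0.867 by limma), at -0.59 and -0.67 in the compost rats, against 0.62 and 0.43 in the control rats. Others named were the adhesion molecule L1cam (-0.58 ± 0.32), the transcription factor Tbx3 (-0.48 ± 0.19), the endothelin-converting enzyme Ece1 (-0.23 ± 0.18) and the guidance cue Sema3a (0.24 ± 0.19). The co-receptors Gfra1 and Gfra2, named after their values were seen, had differences of 0.29 ± 0.39 and 0.20 ± 0.37 and overlapping groups, like the brightest Ret probe. The order of the rats held in 7 of the 22 genes, or 31.8%.

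Receptors and effectors of the 3 transmitter genes were measured for 13 genes, with 0 passing, 5 higher, 8 lower and a median of -0.24. The tachykinin receptor Tacr1 differed by -0.30 ± 0.23 and the receptor Vipr1 by -0.36 ± 0.20 on the log2 scale (SE, n = 2 each). Mme, the peptidase that degrades tachykinins and is also an enterocyte brush border enzyme, differed by -1.02 ± 0.31, and Pde5a, which breaks down cyclic GMP, by -0.51 ± 0.35. Nos2, the inducible nitric oxide synthase of epithelium and immune cells, had the smallest p of the list and ran the other way. It lay at -3.91 and -3.52 in the compost rats, against -7.31 and -5.40 in the control rats, neither of which had a signal well above background. Each control array was also counted at its lowest signal well above background or at the probe's own value, whichever was higher. Compost was then 3.27-fold higher. That fold is not a lower limit, because control replicate 2 lay above that lowest signal without being flagged. Nos2 passed the filter only through the compost arrays, where it was high, so its place in the list adds no support. Prkg1, the cyclic GMP-dependent kinase, was well above background on 2 of 4 arrays and differed by -0.74 ± 0.66. None of these 6 genes passed limma's test (adjusted p = 1.0 for each).

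In place of Gfap and S100b, other genes of enteric glia and Schwann cells were measured for 20 genes, several of which other cells of the gut also express. None passed (0 of 20), 11 were higher and 9 lower in compost, and the median was 0.01. The transcription factor Sox10, which belongs to the crest list too and was named after its values were seen, lay at -2.56 and -3.27 in the compost rats, against -2.64 and -2.73 in the control rats. It was well above background on all 4 arrays with overlapping groups, unlike Gfap and S100b, which were not well above background. By smallest p the list was led by the adhesion molecule Cadm4 (-0.72 ± 0.23), the glutamate transporter Slc1a3 (0.51 ± 0.25) and the water channel Aqp4 (-0.35 ± 0.18). The order of the rats held in 6 of the 20, or 30.0%, near the 26.7% of all probes, and the median gap inside groups was 0.36.

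Smooth muscle markers had the order of the neuron genes. Of 16 listed genes 14 were measured, and in 12 of the 14, or 85.7%, compost replicate 1 lay above compost replicate 2 and control replicate 2 above control replicate 1. Their intensities, as multiples of the 75th percentile, summed to 407 and 361 in the compost rats, against 312 and 385 in the control rats. The centred mean was 0.26 and -0.23 in the compost rats, against -0.22 and 0.19 in the control rats. Between compost and control 0 of 14 passed, with a median of 0.15. Epithelial markers showed that order in 0 of 13 genes, with a centred mean of -0.19 and 0.15 in the compost rats, against 0.02 and 0.02 in the control rats, and their intensities summed to 2490 and 3200 in the compost rats, against 2970 and 2950 in the control rats. Enteroendocrine markers, which matter because some of these peptides and Tac1 are also made by gut hormone cells, showed it in 5 of 19 genes, or 26.3%, with summed intensities of 252 and 283 in the compost rats, against 228 and 201 in the control rats. The part that the amount of muscle wall in each piece of tissue played in the neuron gene levels was not tested.

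**Figure D5:**
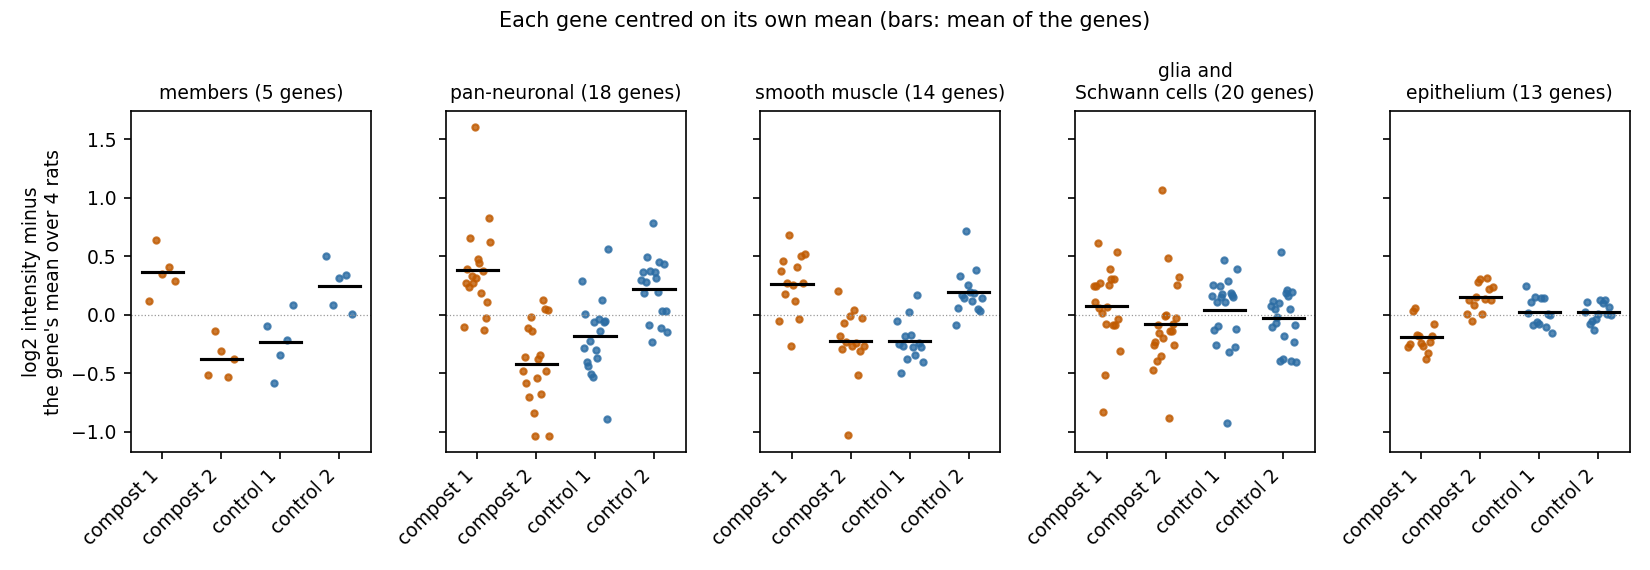
Log2 intensity of each gene minus its mean over the 4 rats, for the 5 measured members, 18 pan-neuronal, 14 smooth muscle, 20 glia and Schwann cell and 13 epithelial genes, with black bars at the mean of the genes. Compost replicate 1 and control replicate 2 lie above 0 on average for the members, the pan-neuronal genes and smooth muscle. The epithelial means are -0.19 and 0.15 in the compost rats, against 0.02 and 0.02 in the control rats.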

How the data were processed

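Cy3-labelled total RNA of the small intestine of 4 rats was put on 1 array each, per the labels. The deposited scanner files hold the processed intensity of each spot, from which Agilent Feature Extraction 9.1.3.1 had taken the background and a spatial trend, per the file headers, with a substitute for signals not above background. They also hold raw mean and background intensities and flags. The authors' deposited value table holds the same intensity, within 0.497% on every array. Of 45018 spots, 1639 controls were left out. Outlier spots were left out, which removed 31 of 41012 probes, and saturated spots were kept.

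Spots of a probe were averaged as log2 and set relative to their array's 75th percentile, taken over all probes for genes. A probe counted as well above background on an array where more than 50% of its spots were, and 28415 probes with this on at least 2 of 4 arrays were kept. The comparison between compost and control used limma 3.58.1 under R 4.3.3 (lmFit, eBayes, two-sided, Benjamini-Hochberg over all kept probes, threshold 0.05). A run on simulated data checked only that planted differences were recovered on average, not how many would pass. The labels treat replicates as separate rats. Precision is limited by the number of arrays.

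For a listed gene with several kept probes, the brightest on average stood for it. Up to 6 genes of each nervous system list were named, taken from those with the smallest p, beside genes chosen after their values were seen, and the 5 genes nearest to the mean member profile were named. Some genes of these lists are not reported here by name. Marker lists of other cell types of the gut wall were described by counts, medians and summed intensities. Names were updated through a RefSeq table of GRCr8. Members and lists were chosen with earlier results of these data known. Alternatives were other scalings, normexp, other filters, the value table, a variance trend, the replicate number as a block and leaving out each rat.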

Additional observations from a re-analysis of the deposited data

How the results depend on the processing

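No member probe passed under any of the 13 alternatives run, and neither did any gene of the 5 nervous system lists. Over all probes 0 passed, while 1 passed with normexp background correction and 2 without control replicate 2; counts at an unadjusted p under 0.05 ran from 613 to 2938 over the alternatives, against 913. Other scalings, filters, the value table and the variance trend left the direction of each member difference they gave as it was; the filter asking for all 4 arrays gave none for the dimmer Ret probe. Leaving out 1 rat turned 3 of the 6: the log2 difference ranged from -0.59 to 0.35 for Elavl4, from -0.42 to 0.25 for the brightest Ret probe and from -0.30 to 0.36 for Uchl1. The cause was not tested. The median gap inside groups lay between 0.56 and 0.65 over the scalings and background corrections, against 0.64. Replicate numbers are shared between the groups. Over 28415 probes the deviations of the replicate 1 arrays from their group means correlated at -0.04. Resting on 1 pair of arrays, this value cannot tell whether the rats were paired. With the replicate block, 0 member probes and 0 probes in all passed, and Tac1 and Vip differed by 0.50 and -0.40. With 2 rats in each group, the intervals of the members do not exclude changes of 1.5-fold in both directions for Uchl1, Elavl4 and the brightest Ret probe, and Nos1, Gfap and S100b were not well above background.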

Other observations

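Markers of interstitial cells of Cajal, the pacemaker cells beside the myenteric plexus, were measured for 5 genes, and 0 passed (median log2 difference 0.02). Their median gap was 1.06 from compost replicate 2 up to compost replicate 1, and 0.04 from control replicate 1 up to control replicate 2, and 3 of the 5 had the order of the neuron genes. Ano1, their chloride channel, lay at -2.94 and -5.17 in the compost rats, against -4.07 and -4.08 in the control rats. Kit, the receptor they depend on, lay at -3.95 and -5.01 in the compost rats, against -4.54 and -4.37 in the control rats. Fibroblast and mesothelium markers were higher in compost in 7 of 7 genes with 0 passing (median 0.24), against 13122 of all 28415 probes higher. Compost was wholly above control in 1 of the 7, the mesothelium marker Msln, against 12.4% of all probes. The groups overlapped in the others. Their intensities summed to 68.7 and 30.8 in the compost rats, against 42.4 and 35.1 in the control rats. In that list the median gap was 1.11 from compost replicate 2 up to compost replicate 1. Markers of mast cells, adipocytes and B and plasma cells showed the order of the neuron genes in 0 of 7, 0 of 4 and 2 of 9 genes. None of these 3 lists held a gene that passed, with medians of 0.44, 0.50 and 1.45. In 8 of the 9 B and plasma cell genes compost was wholly above control, against 12.4% of all probes. Among those genes, Ms4a1 and Cr2 were well above background on 2 of 4 arrays, those of the compost rats. They thus passed the filter only through the group where they were high, so their separation adds no support.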
